A study of Mus musculus with 16 samples.

Results

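The comparison described here sets every tumour library with antibody against every library without it, over both activity levels, so all 16 libraries of the series entered it. The 8 libraries with antibody were 4 of the group labelled anti-PDL1 and 4 labelled exercise with anti-PDL1. The 8 without antibody were 4 labelled control and 4 labelled exercise. All were subcutaneous grafts of MC38, a colon carcinoma line of the mouse, profiled as total RNA. The labels give no strain, age or sex of the host, no dose or timing of the antibody and no form or length of the exercise, and the title of the series speaks of PD-1 where the labels have anti-PDL1. Separate mice are not stated for the 4 libraries within a group, so the p-values reflect only how much these samples spread, and that spread may be technical. The difference with antibody was estimated for each gene with exercise (yes or no) as a covariate, and differences are given as log2(FPKM + 1), with antibody minus without.

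PD-L1 is a ligand on tumour and myeloid cells that binds PD-1 on T cells and restrains them, and antibodies against it lift that restraint. Activated T cells and natural killer cells release interferon gamma, which acts through its receptor and factors such as IRF1 to switch on guanylate-binding proteins, immunity-related GTPases, the immunoproteasome and the peptide transporter that load MHC class I, and PD-L1 itself. MC38 tumours are a widely used model for such antibodies.

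Genes of MHC class I antigen presentation and interferon-induced GTPases were higher in tumours with antibody, and several genes of the extracellular matrix were among the largest falls. Of 11868 genes tested, 231 passed an adjusted p of 0.05 in limma (1.95%), 120 higher (1.01%) and 111 lower (0.935%). The shares of 1.01% and 0.935% are the background for the counts of list members given below. With FPKM rescaled to a fixed sum per library, 110 rose and 336 fell. Past the threshold or not, 4910 of the genes tested had differences above 0 and 6958 below. The rises were larger in size than the falls, with 34 rises and 9 falls of at least 1 on the log2 scale and medians of 0.67 for the rises and -0.41 for the falls. All 8 libraries with antibody lay above all 8 without for 18 genes and below them for 17 (0.295% of genes for both directions together), and 17 and 14 of these passed the limma test. The total of 231 fell to 49, 73, 61, 70, 74, 49, 38, 40 and 118 without anti-PDL1 library 2, anti-PDL1 library 4, exercise with anti-PDL1 library 1, exercise with anti-PDL1 library 2, control 1, control 2, exercise 1, exercise 2 and exercise 4, each left out alone. No gene among the 231 changed sign in any of the 27 alternative fits. These fits reuse libraries that chose the genes, so the kept sign is fixed in large part by that choice. Of the 231 genes, 23 passed in every fit that tested them, 17 that rose and 6 that fell.

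In a principal component analysis, controls 1 and 2, both in the arm without antibody, stood apart on the leading component (30.1% of variance). Without them 42 genes passed, 32 higher and 10 lower, and 31 of these were among the 231. Values without these 2 controls stand beside most of the gene groups that follow. FPKM sums were 494459 to 529732 with antibody and 478672 to 502140 without, and the number of genes at 1 FPKM or more was 11293 to 11595 with antibody and 11385 to 11873 without. In bulk tumour RNA, fewer cells of a type and less RNA per cell cannot be told apart.

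The MHC class I pathway had 12 of its 24 tested genes higher with antibody and 0 lower in limma, and its median difference was 0.61, against -0.03 over all genes tested. Without controls 1 and 2, 9 rose, with a median of 0.61, and with any single library left out 9 to 13 rose. The immunoproteasome, the protease form that cuts peptides suited to class I, came first. Psmb9, a catalytic subunit, measured 32.7 FPKM at the lowest, 52.4 at the median and 84.8 at the highest with antibody, against 13.7, 15.5 and 26.6 FPKM without. No library with antibody overlapped with one without. The log2 difference was 1.55 with a standard error of 0.15 and an adjusted p of 0.000115 in limma, and it was 1.55 without controls 1 and 2. Psmb8, another catalytic subunit, measured 47.6 to 113 FPKM with antibody and 27.0 to 43.7 FPKM without, a difference of 0.99 ± 0.15 (log2 difference ± standard error). Psme1, a subunit of the activator cap of the proteasome, rose by 0.39 ± 0.09, although the arms overlapped.

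Peptides cut by the proteasome enter the endoplasmic reticulum through the TAP transporter. Tap1, a subunit of this transporter, measured 36.3, 51.7 and 80.0 FPKM (lowest, median, highest) with antibody, against 17.1, 21.4 and 32.8 FPKM without. The arms did not overlap, and the difference was 1.19 ± 0.15 with an adjusted p of 0.00151 in limma. Its partner Tap2 measured 27.6 to 45.6 FPKM with antibody and 11.95 to 23.9 FPKM without, a difference of 0.84 ± 0.14. Tapbp, tapasin, which bridges the transporter to empty class I molecules, rose by 0.51 ± 0.11, and its 8 libraries with antibody again lay above the 8 without, with 73.42 FPKM in the lowest with antibody and 73.41 FPKM in the highest without. For Tapbp the difference was 0.75 without exercise and 0.27 with it, and the interaction of antibody and exercise had an unadjusted p of 0.0242 and did not pass the adjusted threshold in limma.

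Class I heavy chains and their light chain rose too. H2-K1, a classical heavy chain, measured 963, 1296 and 1591 FPKM (lowest, median, highest) with antibody, against 444, 717 and 903 FPKM without, a difference of 0.90 ± 0.12. H2-D1, the other classical chain, measured 1025 to 1503 FPKM with antibody and 548 to 960 FPKM without, a difference of 0.70 ± 0.10. Neither gene overlapped between the arms. The non-classical H2-T22 measured 61.8 to 129 FPKM with antibody and 30.8 to 54.9 FPKM without, at 1.10 ± 0.13, and H2-T10, which RefSeq marks as a transcribed pseudogene, 4.01 to 8.01 FPKM with antibody and 1.43 to 2.54 FPKM without, at 1.07 ± 0.11. Reads can be shared between near-identical copies among the heavy chain genes, so the split among them is uncertain. B2m, the light chain beta-2 microglobulin, measured 1205, 1497 and 2445 FPKM with antibody and 843, 1024 and 1341 FPKM without, and rose by 0.62 ± 0.13 although the arms overlapped. Nlrc5, the transactivator of class I genes, rose by 0.73 ± 0.14 with an adjusted p of 0.0223 in limma.

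**Figure D1:**
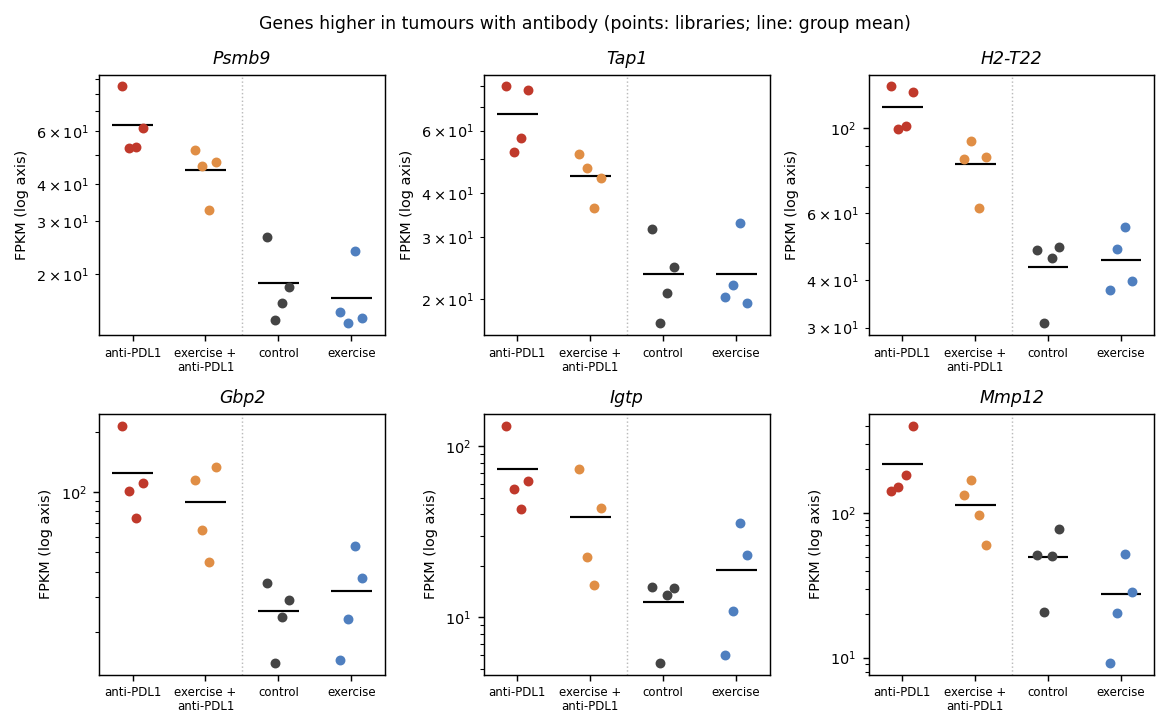
FPKM on a log axis of 6 genes that were higher with antibody, with a point for each library, a line for each group mean and a dotted line between the groups with and without antibody. Psmb9, Tap1 and H2-T22 show no overlap between the 8 libraries with antibody and the 8 without, while Gbp2, Igtp and Mmp12 overlap through libraries of exercise with anti-PDL1.

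MHC class II presentation had 1 of 9 tested genes higher in limma. H2-DMb1, a chain of the peptide-exchange molecule H2-DM, measured 33.9 to 51.4 FPKM with antibody and 17.8 to 30.5 FPKM without, with no overlap, and rose by 0.67 ± 0.11. It passed in all 27 alternatives. The list median was 0.58, and 0.70 when controls 1 and 2 were left out. The class II chains themselves did not pass. H2-Aa measured 43.5, 122 and 217 FPKM with antibody (lowest, median, highest), against 25.8, 64.3 and 130 FPKM without, at 0.82 ± 0.39 with an adjusted p of 0.239 in limma.

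Interferon-induced GTPases are large guanine nucleotide binding proteins that attack the vacuoles of intracellular pathogens, and in these tumours 15 of 18 tested members rose in limma, with 0 lower. Their median difference was 1.58, with 2.04 between anti-PDL1 and control tumours and 1.14 between exercise with anti-PDL1 and exercise tumours. All 18 were above 0 at both activity levels. The count depended on single libraries and was 1, 6, 2, 6, 2, 1 and 2 without anti-PDL1 library 2, anti-PDL1 library 4, exercise with anti-PDL1 library 1, control 1, control 2, exercise 1 and exercise 2, each left out alone. It was 1 without controls 1 and 2 together. The median was between 1.39 and 1.57 in those fits, and between 1.39 and 1.77 with any single library left out. Gbp2, a guanylate-binding protein, is the member that passed in all 27 alternatives. It measured 44.9, 106 and 214 FPKM (lowest, median, highest) with antibody, against 14.1, 26.4 and 53.7 FPKM without. Exercise with anti-PDL1 library 3, at 44.9 FPKM, lay below exercise library 3, at 53.7 FPKM, and the other 7 libraries with antibody lay above all without. The difference was 1.84 ± 0.31 with an adjusted p of 0.0121 in limma.

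Among other guanylate-binding proteins, Gbp4 measured 4.71, 13.6 and 38.3 FPKM (lowest, median, highest) with antibody and 1.33, 2.59 and 6.37 FPKM without, and rose by 1.85 ± 0.36. Gbp6 rose by 1.81 ± 0.39 and Gbp3 by 1.64 ± 0.33, in both cases with overlapping arms. Gbp7 had no overlap, at 9.28 to 44.1 FPKM with antibody and 3.57 to 8.98 FPKM without. Immunity-related GTPases, which act beside the guanylate-binding proteins, showed the same direction. Igtp measured 15.5, 49.8 and 132 FPKM with antibody and 5.42, 14.2 and 35.6 FPKM without, a difference of 1.74 ± 0.42 that passed in 11 of 27 alternatives. Iigp1 rose by 2.09 ± 0.49 and Tgtp2 by 1.76 ± 0.39. Gvin1, a giant interferon-inducible GTPase, rose by 1.84 ± 0.35, and Gm4070, which RefSeq places near Gvin1, by 1.69 ± 0.38. Several of these families hold near-identical copies, among them Tgtp2, Gvin1 and Gm4070, so the split among copies is uncertain.

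Promoters of risers from this group and from class I presentation are shown because these genes moved together and because their promoters differ in the motifs that interferon signalling is known to use. Sequences are from RefSeq on GRCm38.p6, 300 bases from 250 before the start to 50 after it, written 5′ to 3′ on the strand of the gene. Capitals mark the GAS motif (TTCNNNGAA, the gamma-activated site) and the ISRE motif (TTTCNNTTTC, bound by interferon regulatory factors), each searched on both strands, and no GAS match overlapped an ISRE match in the promoters shown.
Gbp2, chr3:142620413-142620712, plus strand: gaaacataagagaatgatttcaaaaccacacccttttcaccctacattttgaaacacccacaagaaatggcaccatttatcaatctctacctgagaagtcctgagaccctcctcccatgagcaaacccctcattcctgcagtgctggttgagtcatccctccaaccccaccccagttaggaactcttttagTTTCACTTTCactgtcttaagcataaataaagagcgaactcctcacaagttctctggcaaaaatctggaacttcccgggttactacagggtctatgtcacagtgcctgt
Gbp5, chr3:142496684-142496983, plus strand: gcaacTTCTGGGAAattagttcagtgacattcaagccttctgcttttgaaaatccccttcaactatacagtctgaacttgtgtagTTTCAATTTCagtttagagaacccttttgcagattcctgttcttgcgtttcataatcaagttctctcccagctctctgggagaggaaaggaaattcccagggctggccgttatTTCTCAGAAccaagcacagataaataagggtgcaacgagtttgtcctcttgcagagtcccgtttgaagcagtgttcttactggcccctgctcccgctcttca
Igtp, chr11:58199306-58199605, plus strand: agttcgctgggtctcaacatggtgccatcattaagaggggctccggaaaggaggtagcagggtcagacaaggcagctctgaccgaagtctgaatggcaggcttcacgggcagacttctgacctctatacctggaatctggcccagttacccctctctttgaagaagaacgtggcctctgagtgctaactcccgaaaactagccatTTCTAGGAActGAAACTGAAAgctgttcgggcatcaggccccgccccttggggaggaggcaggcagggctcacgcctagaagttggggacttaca
Psmb9, chr17:34187281-34187580, minus strand: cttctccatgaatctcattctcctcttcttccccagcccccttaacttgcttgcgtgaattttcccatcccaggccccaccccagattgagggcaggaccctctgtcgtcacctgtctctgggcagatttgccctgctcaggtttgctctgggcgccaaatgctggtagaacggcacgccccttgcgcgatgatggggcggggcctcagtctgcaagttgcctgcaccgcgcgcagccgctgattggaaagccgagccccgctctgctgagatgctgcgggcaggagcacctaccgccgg
The Gbp2 window holds 1 ISRE and 0 GAS, the Gbp5 window 1 ISRE and 2 GAS, and the Igtp window 1 of each. The Psmb9 window holds neither, which says only that these letters are not in that window, and it overlaps the window of Tap1, which lies on the opposite strand. Gbp5, which had promoter motifs of both kinds, rose by 1.32 ± 0.29. Of the 15 GTPases that rose, 7 had a promoter in the RefSeq set, of which 7 held an ISRE and 4 a GAS.

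Over all genes that rose, 83 of 120 had a promoter in the RefSeq set, and 19 of these held an ISRE (22.9%) and 17 a GAS (20.5%), with 36.1% holding either. Of the 91 genes that fell and had a promoter, 3 held an ISRE (3.30%) and 7 a GAS (7.69%), with 10.99% holding either. The shares in 9337 tested genes with a promoter were 3.93% and 8.34%, and in all 32851 RefSeq promoters 3.44% and 8.30%. A match describes letters and does not show that a factor binds there.

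Of 118 genes that rose and had coordinates, 47.5% (56) had another riser within 500 kb, against 8.59% of all tested genes with coordinates, and of 109 fallers with coordinates 22% (24) had another faller that near, against 11.6% of all tested genes. Families of adjacent copies are among the risers, and no test was made of these shares. The genes in the stretches that follow were chosen for their position after their values were seen. On chromosome 17, Tapbp, H2-K1, Ring1, H2-DMb1, Psmb9, Tap1, Psmb8 and Tap2 rose within bases 33919478 to 34216321, and H2-T22, H2-T-ps, H2-T10 and Gm8909 within bases 36037128 to 36168602 (GRCm38.p6, RefSeq). Gbp8, Gbp9, Gbp4, Gbp10 and Gbp6 rose within bases 105012513 to 105295871 of chromosome 5, and Gbp5, Gbp7, Gbp3 and Gbp2 within bases 142496934 to 142638008 of chromosome 3. Iigp1 and its neighbours Gm4951, Gm4841 and F830016B08Rik rose within bases 60212004 to 60392634 of chromosome 18. Neighbouring copies of a gene family can share reads, which was not tested.

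Of 19 tested genes of interferon signalling itself, 2 rose in limma, Nlrc5 and Irf1, with a median of 0.22. With controls 1 and 2 left out, 0 of them passed and the median was 0.27. Irf1, the transcription factor that drives many interferon gamma targets, measured 38.0, 58.2 and 88.9 FPKM (lowest, median, highest) with antibody, against 26.6, 35.3 and 44.1 FPKM without, at 0.69 ± 0.16 with an adjusted p of 0.0432 in limma. Irf1 overlapped between the arms. Ifng, the ligand itself, was too low to test, with 0.17 to 1.28 FPKM with antibody and 0 to 0.38 FPKM without.

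Antiviral effectors, which type I interferon is known to induce, had 1 of 30 tested genes higher in limma, against 1.01% of all genes tested. This was Samhd1, a phosphohydrolase that depletes nucleotides, at 0.50 ± 0.12. All 30 differences were above 0, against 4910 of all 11868 genes tested. Their median of 0.67 was 1.08 without exercise and 0.28 with it, and 0.49 without controls 1 and 2, when 0 passed. The median with exercise was 0.02, 0.06 and 0.50 without exercise library 1, exercise with anti-PDL1 library 1 and exercise library 4, each left out alone, and the median without exercise was 0.69 without anti-PDL1 library 1. Bst2, tetherin, measured 85.0, 160 and 292 FPKM (lowest, median, highest) with antibody, against 47.3, 78.7 and 123 FPKM without. Its arms overlapped, and it did not pass at 0.96 ± 0.26 with an adjusted p of 0.0652 in limma.

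Genes of cytotoxic lymphocytes had 2 of 10 tested members higher, Nkg7 and Gzmb, with 0 lower. Nkg7, a granule membrane protein of cytotoxic cells, measured 1.67, 3.19 and 7.13 FPKM (lowest, median, highest) with antibody, against 0.51, 1.43 and 1.92 FPKM without, at 0.91 ± 0.19 with an adjusted p of 0.0298 in limma. Gzmb, granzyme B, measured 2.84, 10.6 and 16.8 FPKM with antibody and 1.21, 3.18 and 6.05 FPKM without, at 1.34 ± 0.30 with an adjusted p of 0.0403. The 2 lowest Gzmb values with antibody, from exercise with anti-PDL1 library 3 and anti-PDL1 library 4, lay inside the range of the libraries without antibody. Prf1, perforin, measured 1.24, 6.46 and 16.1 FPKM with antibody and 0.41, 2.12 and 5.25 FPKM without, and did not pass at 1.17 ± 0.37. The median difference of the 10 genes was 1.21, with 1.87 without exercise and 0.36 with it. The median with exercise was 0.05, 0.11, 0.86 and 0.23 without exercise with anti-PDL1 libraries 1, 2, 3 and 4, each left out alone, and 0.19 and 0.56 without exercise libraries 1 and 3. Over both levels the median was 0.80 without controls 1 and 2, when 0 members passed, and 7 passed without exercise with anti-PDL1 library 3. Without any single one of anti-PDL1 library 2, exercise with anti-PDL1 libraries 1 and 2 and exercise libraries 1 and 2, 0 members passed in this list and likewise in the antiviral, checkpoint, chemokine, neutrophil, endoplasmic reticulum stress and cytosolic ribosome lists.

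The summed FPKM of the cytotoxic list was 30.2, 242 and 434 (lowest, median, highest) with antibody and 14.2, 78.3 and 158 without. Gzmb, Prf1 and Nkg7 reached at most 16.8, 16.1 and 7.13 FPKM, so other members made up most of the highest sums. Of its 20 members 7 stayed under 1 FPKM in every library. Cd8a, the coreceptor that marks cytotoxic T cells, was not tested, at 0.55, 0.82 and 2.23 FPKM with antibody and 0.12, 0.44 and 0.70 FPKM without. Of the T cell receptor complex and related T cell genes, 5 of 17 could be tested and 0 passed in limma. Again 0 passed without controls 1 and 2. Of the 5, 4 had differences above 0 and 1 below, and their median was 0.24. Cd3g, a chain of the receptor complex, was at 0.61 ± 0.18 (limma, adjusted p 0.0882). Thy1 went the other way, at -0.66 ± 0.31 (limma, adjusted p 0.231). Thy1 measured 7.83 to 20.9 FPKM with antibody and 11.6 to 61.6 FPKM without. Its arms overlapped, and control 2 was the highest library.

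Among checkpoint genes, Cd274, which encodes PD-L1, the target of the antibody, was the 1 of 11 tested members that passed. It measured 4.64, 8.63 and 15.5 FPKM (lowest, median, highest) with antibody, against 1.69, 4.84 and 6.33 FPKM without. The arms overlapped, with exercise with anti-PDL1 libraries 2 and 3 at 5.86 and 4.64 FPKM. The difference was 0.89 ± 0.21 with an adjusted p of 0.0446 in limma, with 0.93 and no call without controls 1 and 2, and it passed in 11 of 27 alternatives. The list as a whole had a median of 0.04, which was -0.01 with FPKM rescaled to a fixed sum. Tnfrsf9, the costimulatory receptor 4-1BB, was at 0.78 ± 0.22 and did not pass.

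Of 20 chemokine genes 2 rose in limma. Ccl5, which draws T cells, measured 5.48, 10.2 and 18.1 FPKM (lowest, median, highest) with antibody and 4.98, 6.38 and 8.13 FPKM without, at 0.67 ± 0.16. Ccl7, which draws monocytes, measured 26.2, 49.4 and 65.0 FPKM with antibody and 12.7, 26.5 and 54.0 FPKM without, at 0.89 ± 0.22. Control 2 was the highest library without antibody for Ccl7 and overlapped with the arm with antibody. Cxcl9 and Cxcl10, interferon-induced ligands of CXCR3, a chemokine receptor of T cells, did not pass, at 1.24 ± 0.38 and 1.24 ± 0.44. Cxcl10 ranged over 24.2 to 218 FPKM with antibody and 10.1 to 61.9 FPKM without. Ccl5 and Ccl7 did not pass without controls 1 and 2, at 0.65 and 1.02, where 2 other genes of the list did, Ccl6 at 1.43 among them. Over all 16 libraries Ccl6 did not pass, at 0.98 ± 0.31 with an adjusted p of 0.103 in limma. Its arms overlapped, and control 2 was its highest library.

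The largest rise of all was that of Mmp12, macrophage elastase. It measured 60.3, 146 and 402 FPKM (lowest, median, highest) with antibody, against 9.22, 39.4 and 77.6 FPKM without. A single library with antibody, exercise with anti-PDL1 library 4, fell inside the range without antibody. The difference was 2.14 ± 0.34 with an adjusted p of 0.00855 in limma, it was 2.11 without exercise and 2.16 with it, and the gene passed in all 27 alternatives. Mmp8, neutrophil collagenase, lies on the same stretch of chromosome 9 and measured 0.48, 2.63 and 6.34 FPKM with antibody and 0.19, 0.70 and 1.55 FPKM without, at 1.03 ± 0.21. Il1rn, the antagonist of the interleukin 1 receptor, rose by 1.22 ± 0.25, with 5.05, 12.7 and 25.9 FPKM with antibody and 1.74, 4.71 and 8.83 FPKM without. Mmp8 and Il1rn were the 2 of 14 tested neutrophil genes that passed, and the list had a median of 0.07. Neither passed without controls 1 and 2, when the list median was 0.19.

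Of 24 monocyte and macrophage genes 21 had differences below 0, against 6958 of all 11868 genes tested. In limma 0 of the 24 passed. The median was -0.69, with -1.13 without exercise and -0.24 with it. Without controls 1 and 2 it was -0.28 over both levels and -0.33 without exercise, and the median with exercise was 0.03 and -0.45 without exercise with anti-PDL1 libraries 2 and 4, each left out alone, and -0.39 without exercise library 3. Cx3cr1, a chemokine receptor of resident macrophages, measured 1.24, 2.10 and 12.5 FPKM (lowest, median, highest) with antibody, against 3.94, 7.48 and 12.9 FPKM without. The arms overlapped, and the difference of -1.19 ± 0.31 had an adjusted p of 0.0585 in limma. Adgre1, the macrophage marker F4/80, measured 2.39, 3.86 and 8.78 FPKM with antibody and 3.52, 7.15 and 18.7 FPKM without, with controls 1 and 2 the highest, at 14.4 and 18.7 FPKM. Its difference was -0.89 ± 0.29, and -0.51 without controls 1 and 2. Outside that list, Slco2b1, an organic anion transporter, fell, at -1.15 ± 0.20, and so did Fcrls, a receptor-like protein known from mouse microglia, at -1.67 ± 0.38. Fcrls measured 1.03, 2.01 and 16.2 FPKM with antibody and 4.65, 14.7 and 21.3 FPKM without, and its highest value with antibody came from exercise with anti-PDL1 library 4. Without controls 1 and 2, Fcrls was at -1.29 and Slco2b1 at -0.97 and neither passed.

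Of the 12 largest falls, 6 were of genes of the extracellular matrix, a grouping made after their values were seen. Cilp, a matrix protein first described in cartilage, measured 0.39, 4.22 and 5.73 FPKM (lowest, median, highest) with antibody, against 9.14, 17.6 and 33.4 FPKM without. The arms did not overlap, and the difference was -2.01 ± 0.34 with an adjusted p of 0.0121 in limma. Thbs2, a matricellular thrombospondin, measured 0.59, 2.09 and 3.94 FPKM with antibody and 4.45, 6.97 and 19.8 FPKM without, again with no overlap. It fell by 1.61 on the log2 scale, with a standard error of 0.26, and was the faller of this kind that passed in all 27 alternatives. Mfap4, a protein of elastic fibres, did not overlap either, at 0.27, 2.26 and 2.79 FPKM with antibody and 3.43, 4.97 and 17.2 FPKM without, a difference of -1.61 ± 0.34.

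Falls with overlapping arms included Mgp, matrix Gla protein, at -1.89 ± 0.44, Col12a1, a collagen that binds fibrils, at -1.49 ± 0.33, and Smoc2, a matricellular calcium-binding protein, at -0.88 ± 0.20. Lrrc15, a membrane protein that marks activated fibroblasts in tumours, measured 0.72, 1.35 and 4.29 FPKM (lowest, median, highest) with antibody and 3.29, 4.36 and 12.9 FPKM without, at -1.20 ± 0.25. The highest value with antibody came from exercise with anti-PDL1 library 1, and the other 7 lay below all libraries without. Without controls 1 and 2 the differences were -1.85 for Cilp, -1.35 for Thbs2, -1.20 for Mfap4, -1.59 for Mgp, -1.08 for Col12a1 and -1.01 for Lrrc15, and of these Thbs2 passed. In the list of collagens and fibroblast genes as a whole, 2 of 24 tested members fell in limma, Thbs2 and Col12a1. The median was -0.40, with -0.22 without exercise and -0.47 with it. Without controls 1 and 2 the list had 1 fall and a median of -0.33 over both levels and -0.08 without exercise. Over all 16 libraries 20 of its members were below 0, against 6958 of all 11868 genes tested. Among them was Postn, periostin, at -1.16 ± 0.34, which did not pass.

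**Figure D2:**
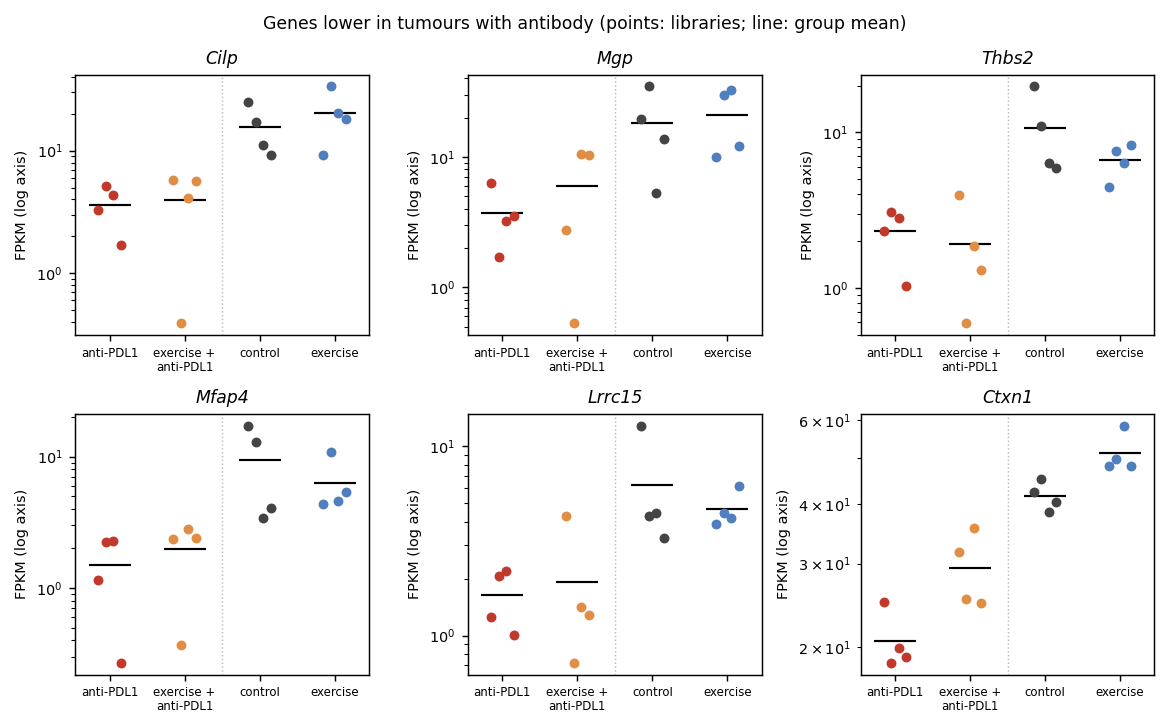
FPKM on a log axis of 6 genes that were lower with antibody, with a point for each library, a line for each group mean and a dotted line between the groups with and without antibody. Cilp, Thbs2, Mfap4 and Ctxn1 show no overlap between arms, while exercise with anti-PDL1 library 1 lies high for Lrrc15 and libraries 3 and 4 of that group lie high for Mgp.

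All 22 tested genes of endothelium and pericytes, the cells of vessel walls, had differences below 0, against 6958 of all 11868 genes tested. Their median was -0.54, with -0.59 without exercise and -0.40 with it. Without controls 1 and 2 the median was -0.29 over both levels and -0.08 without exercise. Over all 16 libraries 1 of these genes fell by limma, against 0.935% of all genes tested. This was Cldn5, the tight junction protein claudin 5, at -0.57 ± 0.12. It measured 1.46, 1.72 and 3.14 FPKM (lowest, median, highest) with antibody and 2.08, 3.11 and 4.64 FPKM without. Flt1, a receptor for vascular endothelial growth factor, was at -0.66 ± 0.17 with an adjusted p of 0.0525 in limma, and Col4a1, a basement membrane collagen, at -0.70 ± 0.19 with 0.0625. The list had 0 genes past the threshold without controls 1 and 2.

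Ctxn1, a small membrane protein named for its expression in brain cortex, had with Psmb9 the lowest adjusted p of all genes, 0.000115 in limma. It measured 18.6, 24.9 and 35.6 FPKM (lowest, median, highest) with antibody, against 38.6, 46.6 and 58.5 FPKM without. No library overlapped, and the difference was -0.89 ± 0.09, with -0.99 without exercise, -0.79 with it and -0.84 without controls 1 and 2. Tenm3, a teneurin of cell adhesion, measured 2.19, 3.12 and 6.82 FPKM with antibody and 5.23, 7.14 and 9.79 FPKM without, with 1 library with antibody inside the range of the others, at -0.87 ± 0.14. Mest, an imprinted gene of mesoderm, was at -1.29 ± 0.31, and its difference was -1.84 without exercise and -0.73 with it. Controls 1 and 2 were the highest libraries for Mest, at 7.65 and 12.7 FPKM, and when they were left out it did not pass, at -0.86 over both levels and -1.06 without exercise. Besides Thbs2, Ctxn1 and Tenm3, the genes that fell in every alternative that tested them were Atf7ip, a partner of the histone methyltransferase SETDB1, at -0.45 ± 0.07, Dennd2a, an exchange factor for Rab GTPases, at -0.52 ± 0.08, and Maml3, a coactivator of Notch signalling, at -0.44 ± 0.08. These 3 were chosen after their values were seen, as were Apol6, an apolipoprotein L, at 1.26 ± 0.19, Pla2g16, a phospholipase, at 0.64 ± 0.11, and Ulk3, a kinase, at 0.47 ± 0.07, which rose in every alternative that tested them.

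The 231 genes had the same sign at both activity levels, anti-PDL1 against control and exercise with anti-PDL1 against exercise, which share no library with each other. Since both levels enter the test that chose these genes, this sign is fixed in part by the choice. Of the 120 risers 86 had the larger difference without exercise, and of the 111 fallers 71, while 57.7% of all genes tested were larger in size without exercise. The medians of the risers were 0.72 without exercise and 0.58 with it, and those of the fallers -0.44 and -0.36. Whether the antibody difference depended on exercise was tested by the interaction, where 0 genes passed in limma, 1554 had an unadjusted p under 0.05 (13.1%) and the lowest adjusted p was 0.364. Of the 231 genes, 16 had an unadjusted interaction p under 0.05. Without exercise 1 the interaction was passed by 223 genes.

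**Figure D3:**
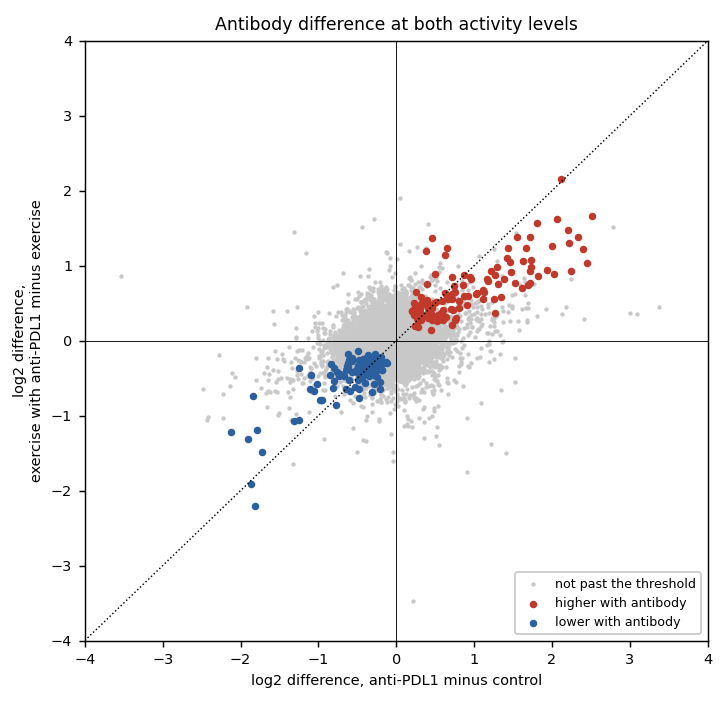
Log2 differences of all 11868 genes tested, with anti-PDL1 minus control on the horizontal axis and exercise with anti-PDL1 minus exercise on the vertical axis, and the 120 genes higher with antibody in red and the 111 lower in blue. The dotted diagonal marks equal differences, and 86 of the red and 71 of the blue points are farther from 0 on the horizontal axis than on the vertical one.

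Genes of cell division and of sterol synthesis had lower medians in the pair of groups without exercise than in the pair with it. Mitosis genes had a median of -0.21 over both levels, with -0.55 for anti-PDL1 against control and 0.10 for exercise with anti-PDL1 against exercise. Without controls 1 and 2 these were -0.08 over both levels and -0.38 for anti-PDL1 against control. Of the 30 members 1 fell in limma, against 0.935% of all genes tested. This was Bub1b, a spindle checkpoint kinase. It measured 17.4, 21.1 and 25.7 FPKM (lowest, median, highest) with antibody and 23.5, 29.7 and 33.8 FPKM without. Bub1b did not pass without controls 1 and 2, at -0.34. An unadjusted interaction p under 0.05 was found for 18 of the 30, against 13.1% of all genes tested, and none passed the adjusted threshold in limma. Mki67, the marker Ki-67, measured 26.0, 37.7 and 53.6 FPKM with antibody and 17.4, 47.4 and 64.7 FPKM without, at -0.05 ± 0.28. Its difference was -0.82 without exercise and 0.71 with it, and its unadjusted interaction p was 0.00219. With controls 1 and 2 left out it was at 0.18 over both levels and -0.63 without exercise. Exercise libraries 2 and 3, at 18.4 and 17.4 FPKM, were the lowest of all for Mki67, and exercise library 1 was at 63.9 FPKM.

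Sterol synthesis had 0 of 25 genes past the threshold in limma, with a median of -0.37 that was -0.80 without exercise and -0.01 with it, and -0.22 without controls 1 and 2. Idi1, isopentenyl diphosphate isomerase, measured 1.12, 3.73 and 5.89 FPKM (lowest, median, highest) with antibody and 3.83, 6.93 and 9.60 FPKM without, at -0.85 ± 0.26 with an adjusted p of 0.0954. The difference of Idi1 was -1.55 without exercise and -0.14 with it. An unadjusted interaction p under 0.05 in limma was found for 18 of the 25 sterol genes as well, against 13.1% of all genes tested. Of 14 fatty acid synthesis genes 1 passed, a fall, against 0.935% of all genes tested that fell. This was Acly, ATP citrate lyase, which makes the acetyl-CoA that sterols and fatty acids are built from. It fell by 0.40 on the log2 scale, with a standard error of 0.10. It passed in 10 of 27 alternatives, and without controls 1 and 2 it was at -0.31 and 0 of the list passed. All 30 DNA replication genes were below 0 over both levels, against 6958 of all 11868 genes tested. These 30 had a median of -0.28, with 0 past the threshold in limma. Their median was -0.53 without exercise and -0.05 with it, where 13 of 30 were above 0, and over both levels it was -0.17 without controls 1 and 2.

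Of 30 cytosolic ribosomal protein genes 7 rose in limma, with a median of 0.25. With quantile normalization the median was 0.05 and 0 passed, so the size of this difference depends on the scaling. Rps24, a protein of the small subunit, measured 1287, 1415 and 1817 FPKM (lowest, median, highest) with antibody and 822, 995 and 1358 FPKM without, at 0.49 ± 0.11. Ribosomal genes have many pseudogenes that can share their reads, and 0 of the list passed without controls 1 and 2, with a median of 0.24.

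Of 25 genes of endoplasmic reticulum stress and the ATF4 response 2 rose, Ddit3 and Trib3, with a list median of 0.11, and 0 passed without controls 1 and 2. Ddit3, the stress factor CHOP, measured 38.4, 53.2 and 105 FPKM (lowest, median, highest) with antibody and 22.2, 34.9 and 43.2 FPKM without, at 0.74 ± 0.16. Trib3, a pseudokinase that CHOP induces, measured 31.4, 47.0 and 59.9 FPKM with antibody and 16.1, 23.015 and 46.0 FPKM without. Its difference of 0.79 ± 0.18 was 0.38 without exercise and 1.19 with it, the reverse of the order seen for most risers, with an unadjusted interaction p of 0.0172 and none past the adjusted threshold. Hypoxia genes had a median of 0.39 and glycolysis genes of 0.25, and oxidative phosphorylation genes of -0.06, with 0 members past the threshold in limma in each of the 3 lists. These medians were 0.36, 0.26 and -0.02 without controls 1 and 2.

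**Figure D4:**
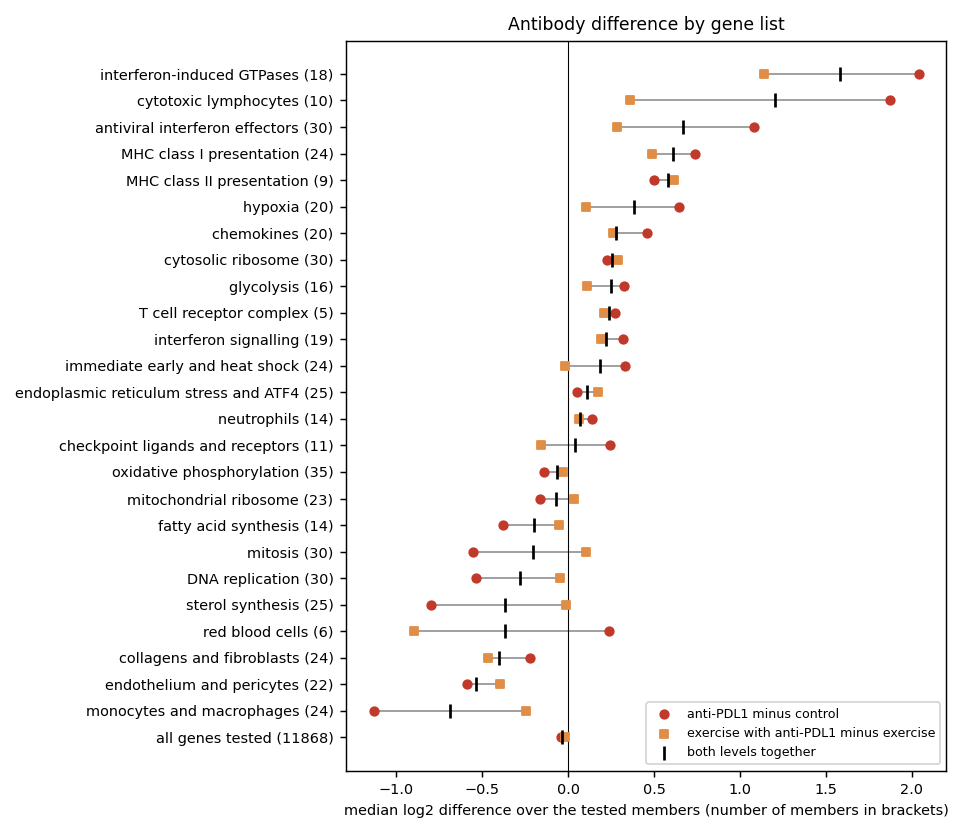
Median log2 difference of each gene list with at least 5 tested members, in anti-PDL1 minus control tumours (red), exercise with anti-PDL1 minus exercise tumours (orange) and both levels together (black), with the number of tested members in brackets and all genes tested in the bottom row. Interferon-induced GTPases lie highest at 1.58 over both levels and monocytes and macrophages lowest at -0.69.

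Markers of other tissues that a graft can carry varied between libraries, and 0 of the tested members of the skeletal muscle and red blood cell lists passed in limma. Skeletal muscle genes summed to 3.24, 5.19 and 11.8 FPKM (lowest, median, highest) with antibody and 4.50, 10.2 and 455 FPKM without, where control 2 was the highest. Their part in the differences was not tested, and the values without controls 1 and 2 are those given above. Red blood cell genes summed to 76.3, 235 and 4081 FPKM with antibody and 172, 394 and 800 FPKM without, with anti-PDL1 library 4 the highest. All 8 B cell and plasma cell genes in the files stayed under 1 FPKM in every library. For the graft itself, the epithelial keratin genes Krt8 and Krt18 and Epcam were near 0, with at most 0.20, 0.11 and 0.17 FPKM with antibody and 0.14, 0.18 and 0.17 FPKM without for Krt8, Krt18 and Epcam. Other epithelial markers were expressed. Of 12 in the files 9 stayed under 1 FPKM in every library, and 3 were tested, Lgals4, Krt19 and Cdh1, of which 0 passed in limma. The 12 summed to 10.9 to 16.8 FPKM with antibody and 10.1 to 14.3 FPKM without.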

How the data were processed

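Total RNA of 16 MC38 tumour libraries was profiled by sequencing. The authors deposited FPKM per gene, to 2 decimals, for 18480 entries in each library. The submitters' processing notes name HISAT, Bowtie2 and GRCm38.p6 without a role. The library kit and the FPKM program are not given in the sources used. Since FPKM hold no counts and only 33.1% of 22500 low values came within 0.15 of whole multiples of their step, sequencing depth is unknown and counting intervals are not given.

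Values were taken as log2(FPKM + 1), which understates the change of low genes. Genes that reached 1 FPKM in 4 or more libraries were fitted in limma 3.58.1 under R 4.3.3, using its trend and robust options, with antibody and exercise as terms, and a second fit added their interaction. P-values were adjusted by Benjamini-Hochberg over all 11868 genes. On simulated data for the antibody comparison with 11868 genes, the fit called 75% of genes changed by 0.5 and 98% of genes changed by 1, and 6.99% of its calls were false, above the 5% set. The simulated noise was independent between genes and libraries, with no outlying library and no exercise difference. These rates may therefore not hold for the real libraries. The labels do not say that a replicate number marks a shared animal, litter or day, so the fit had no block. Of 24 same-number pairs 6 correlated above 0.1. The median correlation was -0.073 for these 24 and -0.0085 for the 72 other pairs. With 4 libraries in a group such correlations cannot decide whether the libraries were paired. Of the entries 17960 carried a RefSeq symbol of GRCm38.p6, from which positions and promoters were taken, and 0 pairs of libraries held identical values.

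Named genes are the 12 largest rises and 12 largest falls past the threshold, the 4 lowest p-values of each gene list and a panel of 14 genes, and others are named as members of a list that passed or were chosen after their values were seen, as said beside them. The comparison, the gene lists and the panel were chosen with earlier results of these data known. The alternatives were limma without those options, 3 scalings, other filters and pseudocount, a cell means model, a replicate block, library weights, leaving out each library and leaving out controls 1 and 2 together. Some genes are not reported here.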

Additional observations from a re-analysis of the deposited data

Results flagged for a closer look

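Among 278 sets of 8 libraries checked, 17 had a highest or lowest library far from the nearest other one, where chance gives about 1 set in 20. With antibody, anti-PDL1 library 4 was low for Acly at 34.5 FPKM, Fen1 at 11.6 FPKM and Atp5a1 at 189.5 FPKM, and high for Herpud1 at 95.7 FPKM and for the globin Hba-a1 at 1562 FPKM. Anti-PDL1 library 2 was low for Ccnb2 at 24.4 FPKM, and exercise with anti-PDL1 library 1 was high for Cldn5 at 3.14 FPKM. Without antibody, control 2 was high for 4 skeletal muscle genes, with Acta1 at 169.9 FPKM, Tnnt3 at 54.6 FPKM, Mylpf at 31.2 FPKM and Tnni2 at 25.0 FPKM. Control 1 was high for Lrrc15 at 12.9 FPKM and control 3 for Krt16 at 1.40 FPKM. Exercise library 1 was low for Ddit3 at 22.2 FPKM, exercise library 2 was listed at 0 for Gvin1, exercise library 3 was high for Higd1a at 20.9 FPKM and exercise library 4 for Zbtb46 at 3.23 FPKM.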

How the results depend on the processing

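The antibody comparison had 231 genes past the threshold in limma, and 446 (110 higher, 336 lower) with FPKM rescaled to a fixed sum, 348 with library weights, 93 with no filter on low values, 83 with the replicate number as a block and 42 without controls 1 and 2. Leaving out each library in turn gave 38 to 309. The interaction had 0 genes past the threshold and 0 to 223 with each library left out. Replicate numbers were not shown to pair libraries, since same-number correlations were -0.62 to 0.34 and 1 of 16 libraries correlated best with its own number. The median difference over all genes was -0.03, and -0.09 with FPKM rescaled to a fixed sum. The T cell receptor complex list had a median of 0.24 over its 5 tested genes. The filter of a mean of at least 5 FPKM left 1 of them, Thy1, at -0.66, which says nothing of the other members. The cytotoxic list had a median of 1.21, and 0.34 with no filter, which adds its low genes, and the cytosolic ribosome list 0.25, and 0.05 with quantile normalization. Of 48 named genes past the threshold, 10 passed in every one of the 27 alternatives that tested them. Depth is unknown for all libraries, and genes under 1 FPKM, among them most T cell markers, could not be tested.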
